A study of Mus musculus with 6 samples.

Results

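The claudins, occludin and ZO-1 build the tight junctions that seal the space between neighbouring kidney epithelial cells. A set of 10 of these genes was followed through the RNA-seq counts, chosen by symbol from the 46095 genes listed: Cldn1, Cldn2, Cldn3, Cldn4, Cldn5, Cldn8, Cldn10 and Cldn12, which encode claudins, Ocln, which encodes occludin, and Tjp1, which encodes ZO-1. All 10 were listed and 9 passed the filter on low counts, the exception being Cldn5. The directional libraries came from PTECs, primary renal tubular epithelial cells, taken freshly from 10-week-old mice, with replicates 1, 2 and 4 carrying the label VHL-KO and replicates 2, 3 and 4 the label VHL-KO;SETD2-KO, 3 mice each. All 6 mice were C57 animals carrying Ksp-Cre, which the kidney epithelial Cdh16 promoter drives, and floxed Vhl, and the second group carried floxed Setd2 as well. Vhl was therefore targeted in both groups, no group without Cre entered the comparison, and any cell in which the promoter is silent keeps its alleles.

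Total counts ran from 11168552 to 17883466 per library, and 3 counts, taken as the smallest signal, equalled 0.168 to 0.269 CPM (counts relative to the library total, with totals scaled by TMM factors). The counts of the targeted genes did not check the labels. Setd2 stood at 71.4, 73.8 and 12.3 CPM in the libraries labelled VHL-KO and at 79.5, 57.2 and 89.5 CPM in those labelled VHL-KO;SETD2-KO, and was thus not lower under the second label. Vhl, targeted in all 6 mice, stood at 11.8 to 25.8 CPM. The deleted exons cannot be seen in counts per gene, so each direction given here is between labels. VHL-KO replicate 4 stood apart, with a Spearman correlation of 0.717 to 0.765 to the other libraries against 0.937 to 0.987 among those, and results that rest on it are given with and without it. VHL-KO;SETD2-KO replicate 3 held 11704 counts of Xist, the RNA of the inactive X chromosome of females, where the other libraries held at most 4. That library alone thus had the Xist level of a female, and the part of sex in results that rest on it was not tested. Cdh16 itself was present at 331.0 to 2251 CPM and the summed proximal tubule markers at 6920 to 25540 CPM, but 10 endothelial markers also summed to 2142 to 6164 CPM and 6 podocyte markers to 1463 to 4922 CPM, so markers of other kidney cell types were present too. In such bulk samples, fewer cells of a type and less RNA per cell cannot be told apart.

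Claudins are membrane proteins whose extracellular loops meet across the gap between cells and set which ions pass. Some form pores and others act as barriers, so the claudins a nephron segment makes largely set its leakiness. The proximal tubule is leaky and is known for the pore-forming claudin-2 and an anion-selective form of claudin-10, whereas another form of claudin-10 carries cations through the thick ascending limb. Claudin-3, claudin-4 and claudin-8 are known from the tighter distal nephron and collecting duct, and claudin-5 from endothelium. Occludin is a membrane protein of a separate family, and ZO-1 is the scaffold that ties claudins and occludin to actin.

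The promoters of the 2 members that lay lower in every library of the second label, Cldn2 and Cldn10, and of the neighbours Cldn3 and Cldn4 are shown because the results turn on these genes. RefSeq windows of 250 bases before and 50 after a transcript start (build GRCm38.p6) were matched for 9 of 10 members, with Cldn8 unmatched, and gave 13 promoters. Capitals mark letters of 6 short motifs, each searched on both strands, so that some appear as the reverse complement. TATAAA is the TATA box and GGGCGG the GC box. The core of hypoxia response elements was searched as ACGTG and as GCGTG. Part of the motif of HNF1, a factor of the proximal tubule, was searched as GTTAAT. The E-box was searched as CACCTG. Cldn2 lies at chrX:139800558-139800857 on the plus strand. The upstream and downstream promoters of Cldn10 lie at chr14:118787621-118787920 and chr14:118854700-118854999 on the plus strand. Cldn3 lies at chr5:134985964-134986263 on the plus strand and Cldn4 at chr5:134946885-134947184 on the minus strand.
Cldn2: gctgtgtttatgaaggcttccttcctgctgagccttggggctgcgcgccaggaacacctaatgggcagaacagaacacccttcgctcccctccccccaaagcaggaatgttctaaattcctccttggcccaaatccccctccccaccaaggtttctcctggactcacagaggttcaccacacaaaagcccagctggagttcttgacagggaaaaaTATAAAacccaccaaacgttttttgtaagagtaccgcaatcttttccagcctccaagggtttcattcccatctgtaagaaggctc
Cldn10 upstream: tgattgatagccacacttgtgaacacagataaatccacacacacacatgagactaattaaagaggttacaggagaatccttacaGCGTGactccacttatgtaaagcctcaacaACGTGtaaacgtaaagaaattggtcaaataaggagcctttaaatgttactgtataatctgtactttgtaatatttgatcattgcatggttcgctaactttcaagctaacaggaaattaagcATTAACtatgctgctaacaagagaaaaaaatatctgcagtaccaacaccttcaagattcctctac
Cldn10 downstream: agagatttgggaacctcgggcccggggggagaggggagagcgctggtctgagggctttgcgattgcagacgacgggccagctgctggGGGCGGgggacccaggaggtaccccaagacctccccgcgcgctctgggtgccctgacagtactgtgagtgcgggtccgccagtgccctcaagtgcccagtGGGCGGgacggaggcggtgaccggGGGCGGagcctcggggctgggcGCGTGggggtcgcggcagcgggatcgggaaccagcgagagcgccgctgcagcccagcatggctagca
Cldn3: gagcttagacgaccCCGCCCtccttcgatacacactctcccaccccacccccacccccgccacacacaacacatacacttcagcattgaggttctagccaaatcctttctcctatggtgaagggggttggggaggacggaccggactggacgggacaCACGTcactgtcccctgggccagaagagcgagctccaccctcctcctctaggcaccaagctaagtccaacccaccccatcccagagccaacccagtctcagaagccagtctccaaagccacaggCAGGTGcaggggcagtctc
Cldn4: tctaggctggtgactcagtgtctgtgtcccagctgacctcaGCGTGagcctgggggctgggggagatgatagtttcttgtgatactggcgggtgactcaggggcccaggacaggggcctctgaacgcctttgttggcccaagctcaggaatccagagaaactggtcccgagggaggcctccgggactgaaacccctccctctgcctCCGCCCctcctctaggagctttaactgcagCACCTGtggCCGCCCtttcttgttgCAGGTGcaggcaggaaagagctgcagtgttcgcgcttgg
The Cldn2 window held TATAAA 35 bases before the start and none of the other motifs, with 51.3% GC against a median of 52.7% over all 32851 promoters. The Cldn10 windows differed most from each other, at 36.0% GC upstream and 72.0% GC downstream. The upstream window held both hypoxia cores and, 15 bases before the start, the HNF1 letters. The downstream window held the GC box 3 times and GCGTG. Counts per gene sum the transcripts of both starts, so the forms of Cldn10 cannot be told apart here. Cldn3 and Cldn4 both held the GC box and the E-box, in windows of 60.7% and 61.0% GC. Each also held a hypoxia core, ACGTG for Cldn3 and GCGTG for Cldn4. Over all promoters, TATAAA was found in 13.6%, GGGCGG in 35.7%, ACGTG in 19.6%, GCGTG in 32.4%, GTTAAT in 7.1% and CACCTG in 20.2%, and a match describes the letters only.

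Per kilobase of exonic length, the proximal pore claudin led the members. Cldn2 averaged 95.0 CPM per kb over the 6 libraries (range 54.6 to 135.1), followed by Cldn10 at 38.0 (26.4 to 56.1), Tjp1 at 23.4 (3.35 to 40.4), Cldn8 at 13.8 (2.69 to 33.4) and Cldn12 at 11.9 (3.51 to 17.2). Cldn4 averaged 7.53 CPM per kb (1.40 to 16.8), Cldn3 4.09 (0.144 to 16.3), Ocln 3.26 (0.818 to 4.84) and Cldn1 2.73 (1.08 to 4.59). Each gene's range overlapped that of the next in this order, except that Cldn5, at 0.304 CPM per kb (0.0396 to 0.791), lay below the range of Cldn1.

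**Figure D1:**
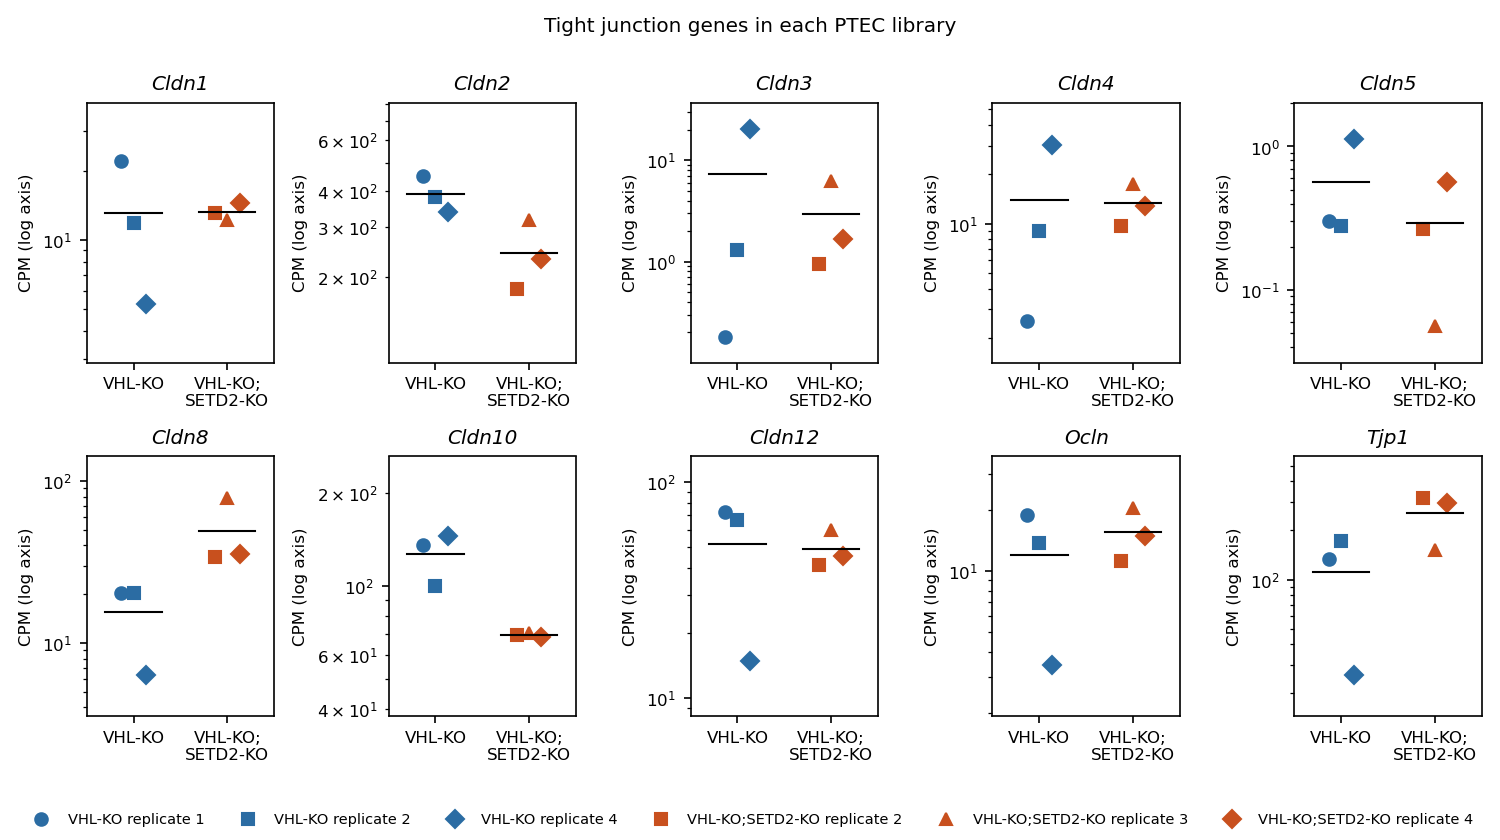
Level of each of the 10 genes (CPM, log axis) in the 6 libraries, by label, with 1 point for each library and a line at the group mean. Cldn2 and Cldn10 lie lower and Cldn8 lies higher in every library labelled VHL-KO;SETD2-KO, while the other genes overlap and VHL-KO replicate 4 often lies at an extreme.

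In the comparison of the labels, which sets mice given floxed Setd2 against mice without it, both with Vhl targeted, genes were called where the unadjusted p was under 0.05 and the fold change was 1.5 or more. By edgeR's quasi-likelihood test 1 of the 9 tested members rose, Cldn8, against 2.65% of all 14611 tested genes called higher. The test called 1 member lower, Cldn10, against 4.68% of all genes called lower. After Benjamini-Hochberg adjustment by edgeR no member was called (0 of 9, lowest adjusted p = 0.625, 2 at an unadjusted p under 0.05), where 0.00684% of all genes were. DESeq2 and limma-voom each called 2 members unadjusted and 0 adjusted, with DESeq2 giving an adjusted p to 2 of the 9. The shares of all genes that these fits called are not given here, so their member counts cannot be set against them. For 3 of the 9, Cldn8, Cldn2 and Cldn10, the groups did not overlap, as for 20.6% of all tested genes in either direction. Without VHL-KO replicate 4 this held for 5 of the 9, with Cldn4 and Cldn8 higher and Cldn2, Cldn10 and Cldn12 lower, and for 41.6% of 15000 genes. The median log2 fold change was -0.06 over the 9 tested members and 0.0095 over all tested genes. The p-values measure the spread between 3 mice per label.

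The pore-forming Cldn2 and Cldn10 lay lower in every library labelled VHL-KO;SETD2-KO, and Cldn10 was called. Cldn2 (chrX:139800828-139811386, GENCODE on GRCm38, as for all gene positions here), the cation and water pore of the proximal tubule, was measured at 449.2, 381.5 and 336.8 CPM in VHL-KO replicates 1, 2 and 4 and at 181.6, 315.7 and 230.8 CPM in VHL-KO;SETD2-KO replicates 2, 3 and 4. The groups did not overlap, with VHL-KO;SETD2-KO replicate 3, the library high in Xist, nearest to the other label. The means were 389.2 ± 56.6 and 242.7 ± 67.9 CPM (SD, n = 3 each), a log2 fold change of -0.68 (SE 0.42) that did not pass edgeR's test (adjusted p = 0.629). Without VHL-KO replicate 4 the log2 fold change was -0.78 (SE 0.26) and was called by edgeR at the unadjusted threshold (adjusted p = 0.191).

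Cldn10 (chr14:118787908-118875489) was measured at 135.8, 100.3 and 145.4 CPM in the libraries labelled VHL-KO and at 69.6, 70.8 and 68.4 CPM under VHL-KO;SETD2-KO. All 3 libraries of the second label lay close together and below every library of the first. Mean levels were 127.2 ± 23.7 and 69.6 ± 1.19 CPM (SD, n = 3 each), so Cldn10 fell by 0.87 on the log2 scale (SE 0.37), 1.83-fold, and was called by edgeR (adjusted p = 0.625). The call held without VHL-KO replicate 4, at a log2 fold change of -0.77 (SE 0.16, adjusted p = 0.105 by edgeR). It was lost without any 1 of the other 5 libraries, with log2 fold changes of -0.80 without VHL-KO replicate 1, -1.002 without VHL-KO replicate 2, and -0.85, -0.87 and -0.84 without VHL-KO;SETD2-KO replicates 2, 3 and 4. The gene overlaps the small n-R5s51 on the opposite strand.

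Like both genes, the summed markers of the proximal tubule were lower in every library labelled VHL-KO;SETD2-KO. The 10 markers summed to 16130, 15420 and 25540 CPM under VHL-KO and to 6920, 9576 and 8242 CPM under VHL-KO;SETD2-KO, and none was at 0 in all libraries. Within VHL-KO the sum was highest in replicate 4, where Cldn2 was lowest, but the single markers went both ways in that library. Slc34a1, which alone gave 14170 CPM of the sum there, was highest in it within VHL-KO, as were Slc5a2, Slc22a6, Aqp1 and Fbp1. Lrp2, Cubn, Slc5a12, Slc27a2 and Gatm were, like Cldn2, lowest in it. Of the 10, 8 had a lower mean. At the unadjusted threshold edgeR called 3 of 10 lower, against 4.68% of all tested genes, and 0 after adjustment. Without VHL-KO replicate 4 it called 6 of 10 lower at that threshold, against 7.14% of 15000 genes. Per 1000 CPM of these markers, Cldn2 stood at 27.8, 24.8 and 13.2 CPM and at 26.2, 33.0 and 28.0 CPM. Cldn10 stood at 8.42, 6.51 and 5.69 CPM and at 10.1, 7.39 and 8.30 CPM on the same scale. Set against proximal markers, the ranges of the labels thus overlapped for both genes, and the part of the markers in the result was not tested. The 4 markers of the thick ascending limb, the other known site of claudin-10, summed to 732.5, 1308 and 3099 CPM and to 728.4, 2178 and 924.3 CPM. These sums overlapped between the labels, unlike the proximal sums, and Umod gave most of each. Unadjusted, edgeR called 1 of 4 higher, against 2.65% of all tested genes, and 0 after adjustment. Without VHL-KO replicate 4 it also called 1 of 4 higher, against 8.29% of 15000 genes.

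Of the distal claudins, Cldn8 was called higher and Cldn4 and Cldn3 were not called. Cldn8 (chr16:88560828-88563183), a barrier claudin of the distal nephron, was measured at 20.2, 20.2 and 6.35 CPM under VHL-KO and at 34.1, 78.8 and 35.3 CPM under VHL-KO;SETD2-KO. The groups did not overlap. VHL-KO;SETD2-KO replicate 3, the library high in Xist, lay far above the rest of its label. With means of 15.6 ± 8.02 and 49.4 ± 25.4 CPM (SD, n = 3 each), Cldn8 rose 3.17-fold, by 1.66 on the log2 scale (SE 0.58), and was called by edgeR (adjusted p = 0.625). It was also called without VHL-KO replicate 4, at 1.29 (SE 0.41, edgeR adjusted p = 0.180). Without VHL-KO;SETD2-KO replicate 3 the log2 fold change was 1.16 (SE 0.61) and the call was lost (edgeR adjusted p = 0.754).

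Markers of the distal convoluted and connecting tubule (5 genes) summed to 572.2, 726.6 and 1793 CPM under VHL-KO and to 968.0, 2588 and 1065 CPM under VHL-KO;SETD2-KO. At the unadjusted threshold edgeR called 3 of 5 higher, against 2.65% of all tested genes, and 0 after adjustment. Without VHL-KO replicate 4 it also called 3 of 5 higher at that threshold, against 8.29% of 15000 genes. Per 1000 CPM of these markers, Cldn8 stood at 35.3, 27.9 and 3.54 CPM and at 35.2, 30.4 and 33.2 CPM. Apart from VHL-KO replicate 4, both labels lay between 27.9 and 35.3 CPM on this scale. The scale rests mainly on Slc12a3, which gave most of each sum and was not called (log2 fold change 0.22). It stood at 434.9, 534.4 and 1672 CPM and at 698.0, 1584 and 797.9 CPM. Of the called Calb1, Slc8a1 and Trpv5, the first and second were, like Cldn8, lowest in VHL-KO replicate 4, and Trpv5 was not. The part of the markers in the rise was not tested.

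Cldn4 (chr5:134945119-134946934), which with claudin-8 sets chloride passage in the collecting duct, was measured at 2.54, 8.96 and 30.5 CPM under VHL-KO and at 9.66, 17.5 and 12.9 CPM under VHL-KO;SETD2-KO. VHL-KO held both the lowest and the highest library. The log2 fold change was -0.06 (SE 0.78, edgeR adjusted p = 0.982), and 1.24 (SE 0.56, adjusted p = 0.276) without VHL-KO replicate 4, when the groups did not overlap and Cldn4 was not called.

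Cldn3 (chr5:134986214-134987472), a sealing claudin, was measured at 0.182, 1.29 and 20.5 CPM under VHL-KO and at 0.955, 6.23 and 1.69 CPM under VHL-KO;SETD2-KO. VHL-KO replicate 1 held 3 counts, the smallest signal, and VHL-KO replicate 4 held 220. The log2 fold change turned from -1.30 (SE 1.39, edgeR adjusted p = 0.760) to 2.09 (SE 1.14, adjusted p = 0.352) without that library. Wbscr25 overlaps Cldn3 on the opposite strand and had at most 4 counts in a library.

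Cldn3 and Cldn4 lie 39.3 kb apart with 0 protein-coding genes between them. The libraries fell in nearly the same order for both, lowest in VHL-KO replicate 1 and highest in VHL-KO replicate 4. The 8 collecting duct markers summed to 56.4, 89.1 and 572.1 CPM under VHL-KO and to 90.6, 312.4 and 99.1 CPM under VHL-KO;SETD2-KO, the order of Cldn4 library by library. In VHL-KO replicate 4 the sum was mostly Aqp2, Hsd11b2 and Aqp3, at 257.0, 129.1 and 113.4 CPM. Unadjusted, edgeR called 2 of 8 higher, against 2.65% of all tested genes, and 0 after adjustment. Without that library it called 2 of 8, against 8.29%. Per 1000 CPM of the 8 markers, Cldn4 ranged from 45.1 to 130.2 CPM. Their part in these levels was not tested.

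**Figure D2:**
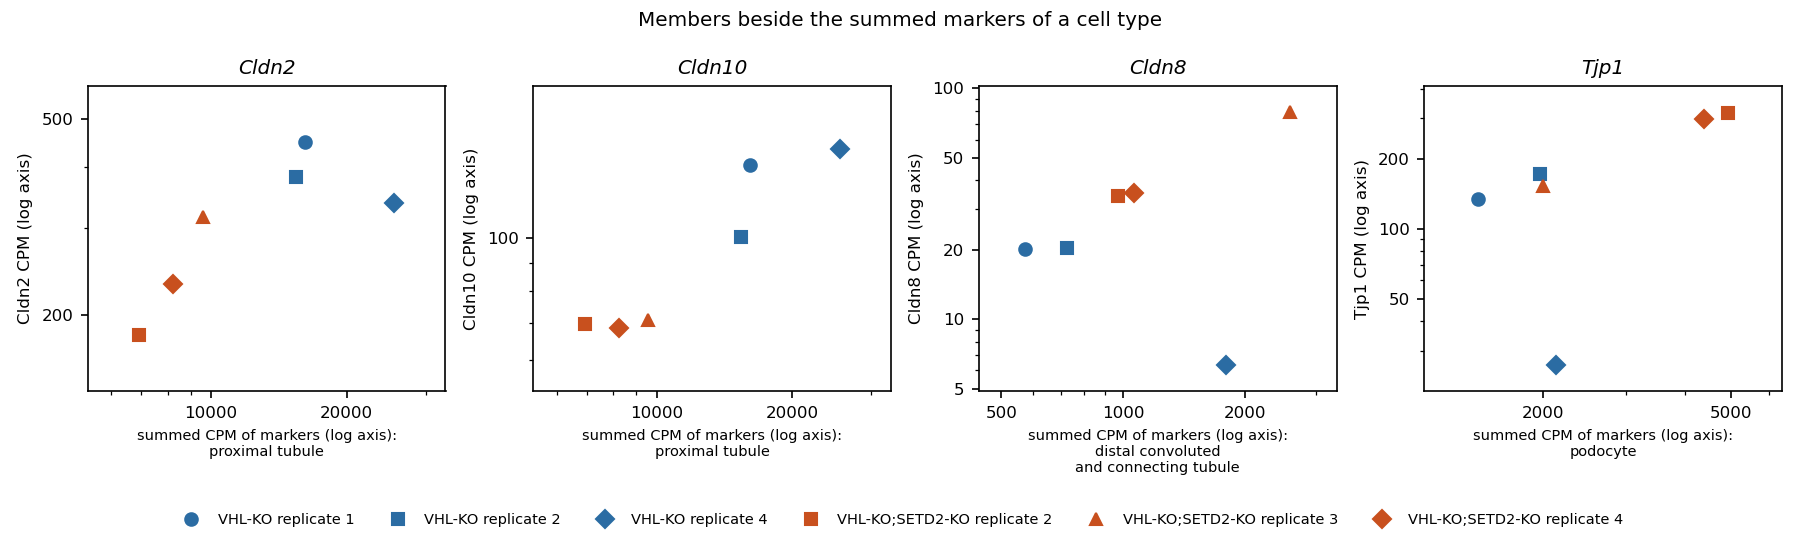
Level of Cldn2, Cldn10, Cldn8 and Tjp1 (CPM, vertical log axes) against the summed CPM of a marker list (horizontal log axes: proximal tubule for Cldn2 and Cldn10, distal convoluted and connecting tubule for Cldn8, podocyte for Tjp1), with 1 point for each of the 6 libraries, coloured by label. Cldn2 and Cldn10 were lowest in the 3 libraries with the lowest proximal tubule sums, and VHL-KO replicate 4 lies below the rest for Cldn8 and Tjp1.

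The remaining claudins gave no call. Cldn1 (chr16:26356642-26371841), a barrier claudin known in the kidney from the parietal cells of Bowman's capsule, was measured at 22.2, 11.8 and 5.23 CPM under VHL-KO and at 13.1, 12.2 and 14.5 CPM under VHL-KO;SETD2-KO. The first group spanned the second, with a log2 fold change of 0.02 (SE 0.54, edgeR adjusted p = 0.993), and of -0.37 without VHL-KO replicate 4. Cldn12 (chr5:5489537-5514958), linked to paracellular calcium, was measured at 72.9, 66.8 and 14.8 CPM and at 41.3, 60.0 and 45.6 CPM. Its log2 fold change was -0.07 (SE 0.59, edgeR adjusted p = 0.971). The Cldn12 groups did not overlap without VHL-KO replicate 4, at a log2 fold change of -0.51 (SE 0.19, edgeR adjusted p = 0.215) that was under the fold threshold of 1.5.

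Cldn5 (chr16:18776847-18778262), the barrier claudin of endothelium, was close to the smallest signal. Its counts were 5, 3 and 12 under VHL-KO and 5, 1 and 9 under VHL-KO;SETD2-KO, or 0.0561 to 1.12 CPM. It was not tested. All 10 endothelial markers were detected and 9 had a higher mean under VHL-KO;SETD2-KO, with sums of 2171, 2704 and 2142 CPM against 6164, 2196 and 5289 CPM and 0 called by edgeR. Without VHL-KO replicate 4 edgeR called 1 of 10 higher at the unadjusted threshold, against 8.29% of 15000 genes. On these few counts Cldn5 did not follow the endothelial sums, being highest in VHL-KO replicate 4, at 12 counts.

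Of the non-claudin members, Ocln (chr13:100496507-100552718) was measured at 19.0, 13.7 and 3.45 CPM under VHL-KO and at 11.3, 20.4 and 14.9 CPM under VHL-KO;SETD2-KO. The groups overlapped, with a log2 fold change of 0.37 (SE 0.61, edgeR adjusted p = 0.834), and -0.08 without VHL-KO replicate 4. Tjp1 (chr7:65296165-65527781) was measured at 134.2, 171.3 and 26.1 CPM and at 315.7, 152.5 and 295.7 CPM. VHL-KO;SETD2-KO replicate 3 fell among the libraries of the other label, while replicates 2 and 4 lay above all of them. The log2 fold change of Tjp1 was 1.20 (SE 0.69, edgeR adjusted p = 0.625), and 0.73 (SE 0.34, adjusted p = 0.291) without VHL-KO replicate 4.

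Podocytes and endothelium also use ZO-1, and their markers were high in the libraries where Tjp1 was. The 6 podocyte markers summed to 1463, 1978 and 2132 CPM under VHL-KO and to 4922, 2001 and 4378 CPM under VHL-KO;SETD2-KO. At the unadjusted threshold edgeR called 3 of 6 higher, against 2.65% of all tested genes, and 0 after adjustment. Without VHL-KO replicate 4 it called 4 of 6 higher at that threshold, against 8.29% of 15000 genes. Per 1000 CPM of podocyte markers, Tjp1 stood at 91.7, 86.6 and 12.3 CPM and at 64.2, 76.2 and 67.5 CPM. Relative to these markers, then, Tjp1 under VHL-KO;SETD2-KO lay below VHL-KO replicates 1 and 2 and above VHL-KO replicate 4. Per 1000 CPM of endothelial markers the labels overlapped, at 61.8, 63.4 and 12.2 CPM and at 51.2, 69.4 and 55.9 CPM. The part of these cells in the Tjp1 values was not tested. Tjp1 also overlaps 3 gene models, Gm44792, Gm44794 and Gm44795, not analysed here.

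**Figure D3:**
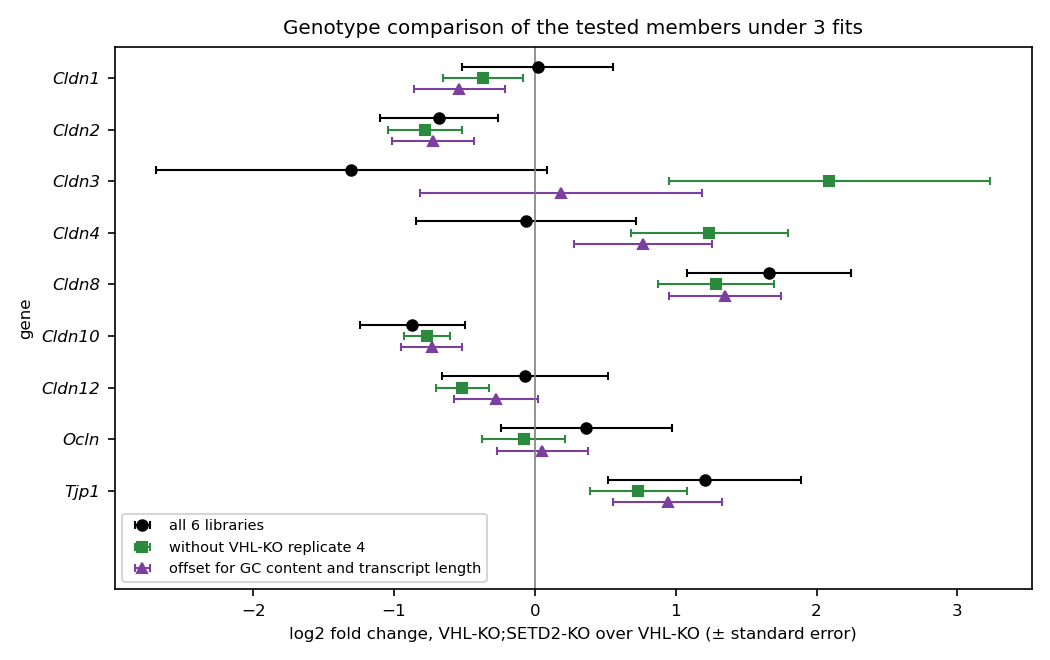
Log2 fold change of the 9 tested members, VHL-KO;SETD2-KO over VHL-KO, with standard errors, for all 6 libraries, without VHL-KO replicate 4, and with an offset for GC content and transcript length. Cldn8 and Tjp1 lie above 0 and Cldn2, Cldn10 and Cldn12 lie below 0 in all 3, whereas Cldn3 turns from -1.30 to 2.09 without VHL-KO replicate 4.

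VHL-KO replicate 4 held the lowest of the 6 values for 5 of the 9 tested members and the highest for 3. Its levels differed from the mean of VHL-KO replicates 1 and 2 along GC content and length over all genes. The median log2 difference ran from -2.28 among the genes lowest in GC (31.0 to 43.9%) to 1.56 among the highest (55.4 to 72.8%), and from 1.15 among the shortest to -1.41 among the longest, with the 13786 tested genes of known length and GC cut into 5 bins of near-equal size. Among the members it was 4.95 for Cldn3 (62.7% GC, 1259 bases), 2.64 for Cldn4 (56.8%, 1816 bases) and, on few counts, 1.57 for Cldn5 (60.5%, 1416 bases). It was -2.53 for Tjp1 (46.8%, 7049 bases), -2.22 for Cldn12, -2.18 for Ocln, -1.65 for Cldn8 and -1.61 for Cldn1, and only -0.30 for Cldn2 and 0.32 for Cldn10. Cldn2 and Cldn10 were thus the tested members that differed least in this library.

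**Figure D4:**
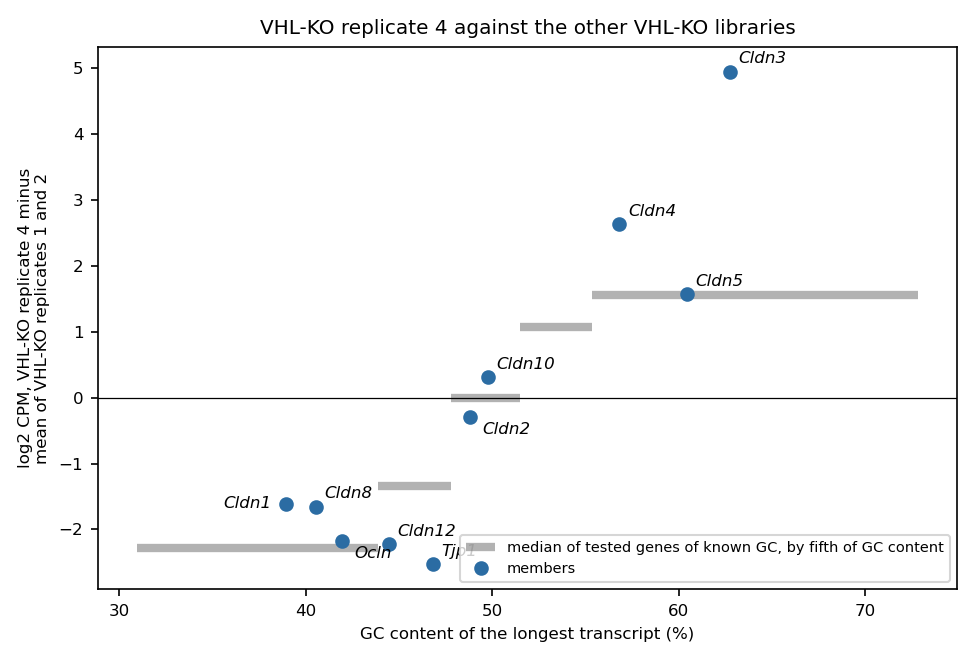
Log2 difference in CPM between VHL-KO replicate 4 and the mean of VHL-KO replicates 1 and 2 for each member (points) against its transcript GC content in percent, with the median over the 13786 tested genes of known GC in bins of GC (grey). The members run from -2.53 for Tjp1 to 4.95 for Cldn3, the gene highest in GC.

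Without VHL-KO replicate 4, edgeR called 1 of 9 members higher (Cldn8, against 8.29% of 15000 genes) and 2 lower (Cldn2 and Cldn10, against 7.14%). With an offset for GC content and length, chosen after seeing the data, it called 2 higher (Cldn8 and Tjp1, against 5.69% of 13786 genes) and 2 lower (Cldn2 and Cldn10, against 9.02%). In that fit Tjp1 had a log2 fold change of 0.94 (SE 0.39, edgeR adjusted p = 0.310) and Cldn2 of -0.73 (SE 0.29, adjusted p = 0.303). Cldn8, Cldn10 and Cldn2 were called in both.

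As a share of all claudin counts per kilobase, the levels gave each library the following make-up. Cldn2 took 59.4, 56.9 and 44.5% of claudin counts under VHL-KO and 39.9, 45.5 and 44.5% under VHL-KO;SETD2-KO. These groups overlapped at VHL-KO replicate 4. Cldn8 took 3.77, 4.26 and 1.18% and then 10.6, 16.0 and 9.60%, with no overlap. Cldn10 took 23.0, 19.2 and 24.7% and then 19.6, 13.1 and 16.9%, with VHL-KO replicate 2 inside the range of the other label. The ratio of Cldn8 to Cldn2 per kilobase was 0.0635, 0.0749 and 0.0266 under VHL-KO and 0.265, 0.352 and 0.216 under VHL-KO;SETD2-KO, higher in every library of the second label. The ratio of Cldn2 to Cldn10, at 1.81 to 2.96 and 2.03 to 3.48, overlapped. These shares and ratios follow from the levels above, the ratios were chosen with those levels known, and none was tested.

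**Figure D5:**
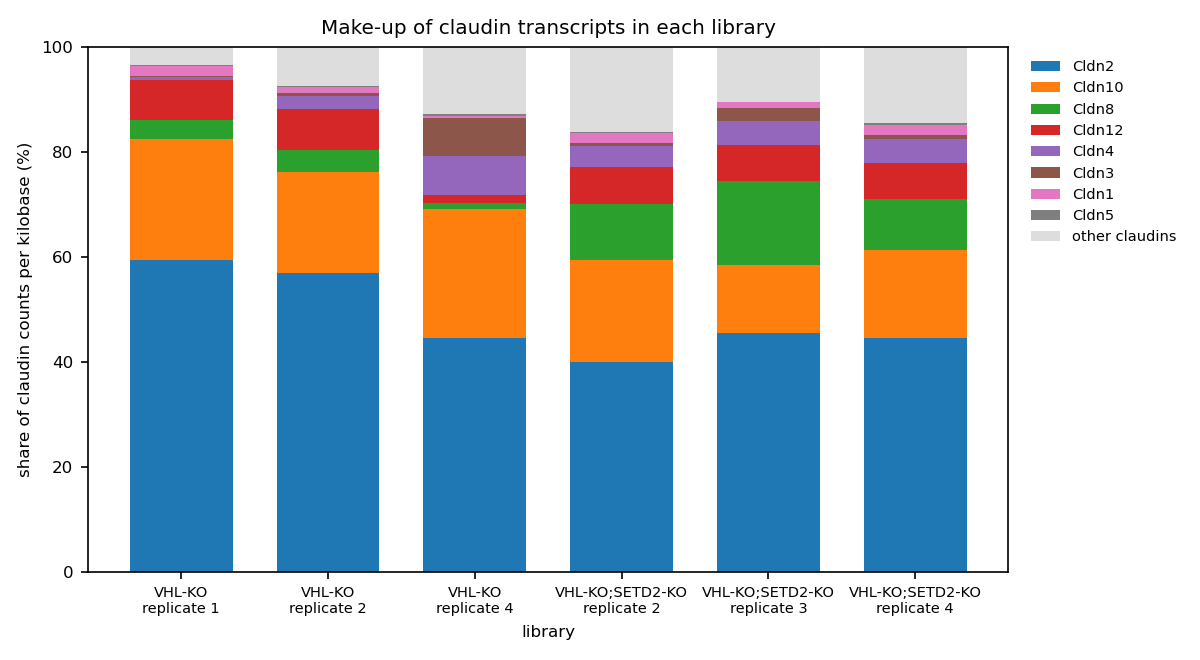
Share of claudin counts per kilobase (percent, stacked bars from 0) taken by each claudin in the 6 libraries, ordered by label. Cldn2 and Cldn10 fill most of each bar, and Cldn8 takes 1.18 to 4.26% under VHL-KO and 9.60 to 16.0% under VHL-KO;SETD2-KO.

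By the root mean square difference of mean-centred log2 CPM over the 6 libraries, a description with no test, Cldn12 and Ocln were the closest pair of members (0.251), followed by Cldn2 and Cldn10 (0.316), and Cldn3 and Tjp1 the farthest (2.85). Outside the members, the genes nearest to Cldn8 were Mal2 (0.154), Kcnj1 (0.155) and Exph5 (0.173), of which Kcnj1 encodes the potassium channel ROMK of the distal nephron. Those nearest to Cldn3 were Col6a2 (0.324), Aqp2 (0.325) and Hsd11b2 (0.363). Col6a2 encodes a collagen chain, and Aqp2 and Hsd11b2 are genes of principal cells of the collecting duct. Like Cldn3, Aqp2 and Hsd11b2 were highest in VHL-KO replicate 4. Of the other collecting duct markers, Aqp3, Slc4a1 and Fxyd4 were highest there too. Scnn1g, Slc26a4 and Atp6v1g3 were highest in VHL-KO;SETD2-KO replicate 3 instead, and Atp6v1g3 was lowest in VHL-KO replicate 4. Nearest to Cldn4 were Adamtsl4 (0.115), Batf3 (0.198) and Bdkrb2 (0.291). Cldn2 lay nearest to Slc35f2 (0.0499), 4933431E20Rik (0.0701) and Ak3l2-ps (0.0773), and Cldn10 to Sec61g (0.0919), Sfxn5 (0.0943) and Dnajc19 (0.0972). Cldn12 lay nearest to Pdha1 (0.0722), Lrpprc (0.0731) and Hspa9 (0.0755), and Tjp1 to Fgl2 (0.0764), Flrt2 (0.0764) and Dach1 (0.0796). VHL-KO replicate 4 is among the 6 libraries behind each distance.

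The other genes of the tight junction, 65 in the table, split into 21 claudins, 14 other membrane proteins and 30 plaque and polarity proteins, of which 49 were tested. Their mean was higher under VHL-KO;SETD2-KO for 33 and lower for 16, with a median log2 fold change of 0.22 against 0.0095 over all tested genes. By edgeR's test 2 rose and 1 fell, against 2.65% and 4.68% of all tested genes, and 0 were called after adjustment (lowest adjusted p = 0.625, 3 called unadjusted). Without VHL-KO replicate 4, 8 were called higher and 1 lower, against 8.29% and 7.14% of all genes, with a lowest adjusted p of 0.0775 by edgeR. Per kilobase the most abundant were Cgnl1 (36.9 CPM per kb), which encodes the plaque protein paracingulin, F11r (35.5), which encodes JAM-A, Esam (26.9), an endothelial adhesion molecule, Wnk4 (26.4), a kinase of the distal nephron, and Amotl2 (15.1).

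Epcam, which encodes an epithelial adhesion molecule known to bind claudin-7, rose from 11.9, 17.0 and 14.9 CPM to 21.0, 62.5 and 23.5 CPM (log2 fold change 1.29, SE 0.52, edgeR adjusted p = 0.625). Like Cldn8 it was highest in VHL-KO;SETD2-KO replicate 3, the library high in Xist. Magi2, a scaffold gene that podocytes use, rose from 21.1, 29.4 and 11.2 CPM to 52.5, 30.9 and 52.9 CPM (1.15, SE 0.48, edgeR adjusted p = 0.625). Its values were lowest within the second label in replicate 3, as those of Tjp1 and of the podocyte markers were. Tprn, which encodes the actin-associated taperin and is not itself a seal protein, fell from 26.8, 26.0 and 101.2 CPM to 18.2, 21.6 and 19.4 CPM (-1.38, SE 0.59, edgeR adjusted p = 0.625). Leaving out VHL-KO replicate 4 ended the calls of Tprn, at a log2 fold change of -0.42, and of Epcam, at 1.31, and kept that of Magi2, at 0.85.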

How the data were processed

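RNA-seq of PTECs from 6 mice was analysed from the raw counts per gene symbol that the authors deposited for each library. The submitters' processing notes name HISAT2 2.0.4 and GRCm38. Libraries were made with a directional kit. The counting program, its annotation and whether it used strand are not given in the sources used here. Groups came from the sample labels and the age from the study's methods. The members and the gene lists were chosen with earlier results of these data known, and the offset was added after seeing the data.

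The quasi-likelihood test of edgeR 4.0.16 (R 4.3.3) was run on TMM-normalised counts of the 14611 of 46095 genes passing filterByExpr, in a model of the label alone. A call needed an unadjusted p under 0.05 and a 1.5-fold change, the study's thresholds, and p-values were adjusted over all genes tested. With 3 mice per label only adjusted p-values are printed for single genes. Log2 CPM used a prior count of 2. The standard error was taken as the log2 fold change over the root of F. DESeq2 1.42.0 and limma 3.58.1 gave alternative fits, along with another normalisation, 2 other filters, removal of mitochondrially encoded genes, each library left out, a replicate block and an offset for GC content and length (13786 of 14611 genes had both). Gene positions and lengths are from GENCODE vM21 (GRCm38), and promoters from RefSeq. No column of per-sample values was left out (0 columns). The floor of 3 counts covers counting error alone, because PCR copies were not marked by molecular identifiers. The scripts were tested on simulated counts.

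Named genes were all members, the called and the 5 most abundant other tight junction genes, and the 3 genes nearest to each tested member, not all of which are printed. Replicate numbers 2 and 4 occur under both labels, and no source says that they pair mice.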

Additional observations from a re-analysis of the deposited data

How the results depend on the processing

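Cldn8 kept its direction in all 14 alternative fits and its call in 12, Cldn10 its direction in 14 and its call in 6, and Cldn2 and Tjp1 their directions in 14. Of the members, 0 were called higher and 0 lower with the replicate block or by adjusted p. Deviations of same-numbered libraries correlated at 0.16 and -0.32, too few and too mixed to show whether the numbers pair the mice, and under the block Cldn8 had a log2 fold change of 1.61 and Cldn10 of -0.81 (edgeR adjusted p = 0.951 for both). The calls for other tight junction genes were likewise 0 higher and 0 lower with the block and by adjusted p. Without the low-count filter or with at least 10 counts in every library, 0 members were called lower, and Cldn3 was not tested under the latter. The offset called 2 members higher and 2 lower and 6 other tight junction genes higher and 3 lower. Other tight junction genes called lower numbered 2 with DESeq2 size factors, 4 with DESeq2, and 0 with limma-voom, the 10-count filter or without mitochondrial genes, and limma-voom called 1 higher. Leaving out 1 library gave 0 to 1 members higher, 0 to 2 lower, a member median of -0.24 to 0.27, and 0 to 8 other genes higher and 0 to 4 lower. Shares of all genes called are given above for edgeR's main fit, without VHL-KO replicate 4 and with the offset. For the other fits they are not given, so those counts cannot be set against them.

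Log2 fold changes of 5 uncalled members, Cldn1, Cldn3, Cldn4, Cldn12 and Ocln, crossed 0. That of Cldn1 was -0.028 with DESeq2 size factors and with DESeq2, -0.54 with the offset, and -0.37 to 0.65 with a library left out. That of Cldn3 was 0.44 with limma-voom, 0.19 with the offset and -2.44 to 2.09 with a library left out. That of Cldn4 was 0.59 with limma-voom, 0.040 without a filter, 0.027 without mitochondrial genes, 0.77 with the offset and -0.54 to 1.24 with a library left out. That of Cldn12 was 0.22 with limma-voom, 0.46 with the block and -0.51 to 0.27 with a library left out, and that of Ocln was -0.079 to 0.86 with a library left out. The causes were not tested. Depth limits Cldn3 and Cldn5, which had 3 counts or fewer in 1 and 2 libraries.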

Other observations

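Of the 33 claudins with a length, 15 had at most 3 counts in every library, so the family was carried by few genes. The 8 claudins among the members held 96.5, 92.5 and 87.2% of claudin counts per kilobase in VHL-KO replicates 1, 2 and 4 and 83.7, 89.6 and 85.5% in VHL-KO;SETD2-KO replicates 2, 3 and 4. The largest share of any other claudin in a library was 13.9%, for Cldn15, a pore-forming claudin known from the intestine. Inadl (PATJ, a polarity protein of the tight junction), chosen after its values were seen, stood at 91.2, 81.0 and 59.3 CPM under VHL-KO and at 41.2, 48.4 and 45.9 CPM under VHL-KO;SETD2-KO with no overlap, and its log2 fold change was -0.77 (edgeR adjusted p = 0.625) and -0.93 without VHL-KO replicate 4 (edgeR adjusted p = 0.0775).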
